A study of Mus musculus with 24 samples.

Results

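Expression of 6 genes of the perineurium and of its cell junctions was followed in sciatic nerve: Slc2a1, Cldn1, Tjp1, Ocln, Lypd2 and Moxd1. They were taken by symbol from a raw count table of 24421 genes, which held all 6 members. The mice carried floxed alleles of the tumour suppressor Nf1 together with Cre driven by the Postn promoter (genotype Nf1 flox/flox PostnCre+), and the labels place the nerves at the stage of plexiform neurofibroma, a benign nerve sheath tumour. Groups of 6 libraries received, for 1 week, abemaciclib with LY3214996 (combination), LY3214996 alone (ERKi, an ERK1/2 inhibitor), abemaciclib alone (CDKi, a CDK4/6 inhibitor) or vehicle. Every group carries the floxed alleles and the Cre, so none of the 24 libraries is a control for the genotype. The labels leave unsaid whether each library is a separate animal, and p-values therefore measure only the spread between these samples.

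The perineurium is a sleeve of flattened cells around each nerve fascicle, and together with the vessels inside the fascicle it forms the blood-nerve barrier. Its cells are sealed to each other by tight junctions, in which claudins and occludin cross the membrane and zonula occludens proteins tie them to actin, and they carry the glucose transporter GLUT1, the product of Slc2a1, which is used as a marker of perineurial cells in pathology. In mice, desert hedgehog released by Schwann cells is needed for the sleeve to form.

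Library totals ran between 12096100 and 18518600 counts for combination, 14525100 and 24676800 for ERKi, 15118800 and 19757300 for CDKi, and 5391540 and 42321600 for vehicle. Schwann cell markers were high in every library (10 markers, summed level 5667 to 32795 as CPM, a library's count scaled to its TMM-adjusted total). The libraries stood apart in RNA of other tissues. The 10 neuron markers averaged below 6 log2 CPM in 6 libraries, called neuron-poor here (combination 3 and 5, CDKi 3 and 5, vehicle 1 and 5), and the liver gene Alb exceeded 100 CPM in 3 (ERKi 3, CDKi 1 and CDKi 3). The other 16 libraries had neither feature. RNA of fat and muscle also varied between groups. The 10 adipocyte markers summed to 48.7 to 192 CPM in combination, 32.9 to 242 CPM in ERKi, 164 to 346 CPM in CDKi and 22.3 to 147 CPM in vehicle, with median log2 fold changes against vehicle of 0.88, 1.58 and 2.03 and an unadjusted p under 0.05 for 4, 6 and 9 of the 10. The 10 skeletal muscle markers summed to 6.82 to 101 CPM in combination, 23.6 to 107 CPM in ERKi, 9.14 to 951 CPM in CDKi and 7.55 to 55.9 CPM in vehicle, with median log2 fold changes of 2.83, 3.02 and 4.97 and an unadjusted p under 0.05 for 0, 2 and 7. Of all genes tested by edgeR, 11.5%, 6.34% and 3.12% had such a p in the same comparisons. The CDKi muscle value rests largely on CDKi 5, since the next CDKi library was at 48.3 CPM. After adjustment by edgeR 0 markers of either list passed, and none was at 0 in any group. The members were measured in bulk tissue, where fewer cells of a type and less RNA per cell cannot be told apart.

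Per kilobase of exon, which allows genes to be set side by side, the members spanned a wide range of levels. Tjp1, which encodes the junction scaffold ZO-1, was highest with a median of 34.5 CPM per kilobase over the 24 libraries (19.5 to 49.9). Slc2a1 followed at 26.1 (15.0 to 50.3) and Cldn1, the gene for the barrier-forming claudin-1, at 12.5 (5.85 to 25.3). The ranges of these neighbours overlapped. Moxd1, a relative of the copper enzyme dopamine beta-hydroxylase, had a median of 4.94 CPM per kilobase (1.17 to 11.2). Ocln, the gene for occludin, had one of 0.721 (0.400 to 1.49), and its range lay below that of Cldn1. Lypd2, of the Ly6/uPAR family of small membrane-anchored proteins, was below the limit of detection of 3 counts in most libraries. Its median was 0.0796 CPM per kilobase (0 to 0.560), a value that rests on very few counts. Among 21 other claudins the highest was Cldn19, a claudin of Schwann cell myelin, with a median of 87.0 CPM per kilobase. Cldn5, the main claudin of endothelium, stood at 10.3 and the widely expressed Cldn12 at 9.01, so Cldn1 was second among the claudins, with a range that overlapped those of Cldn5 and Cldn12.

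**Figure D1:**
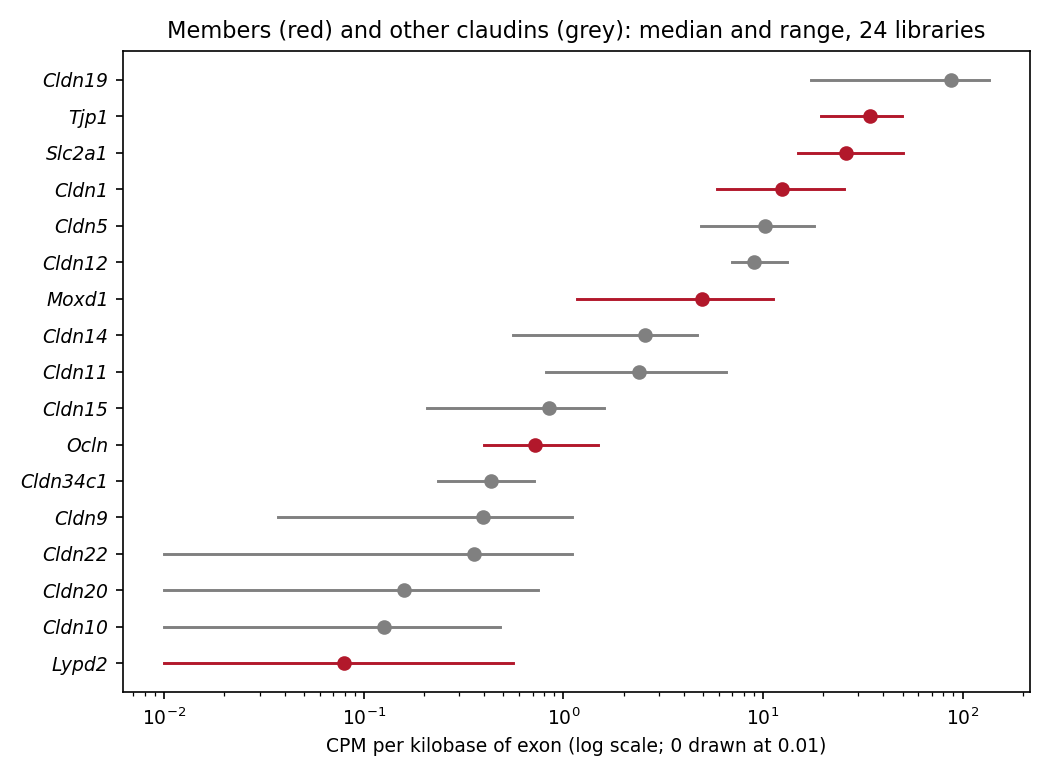
Level per kilobase of exon (CPM per kilobase, log axis) of the 6 members, in red, and of the other claudins with a median above 0.1, in grey. Points are medians and lines run between the lowest and highest of 24 libraries; Cldn19, Tjp1, Slc2a1 and Cldn1 lie at the top, and Lypd2 at the bottom.

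Promoters are shown for Slc2a1, which had the smallest p of any member in a comparison with vehicle, and for Cldn1 and Ocln, the pair of members that varied most alike over the 24 libraries. RefSeq windows of 300 bases (250 before and 50 after the start site, build GRCm38.p6) were found for 5 of the 6 members, and Lypd2 had none. Capitals mark matches on either strand to a GC box (GGGCGG), a Snail-type E-box (CAGGTG), the core of the hypoxia response element (ACGTG) or a TATA box (TATAAA), and CCGGAAG, an ETS core, was searched as well.
Slc2a1 promoter, chr4:119108495-119108794, plus strand: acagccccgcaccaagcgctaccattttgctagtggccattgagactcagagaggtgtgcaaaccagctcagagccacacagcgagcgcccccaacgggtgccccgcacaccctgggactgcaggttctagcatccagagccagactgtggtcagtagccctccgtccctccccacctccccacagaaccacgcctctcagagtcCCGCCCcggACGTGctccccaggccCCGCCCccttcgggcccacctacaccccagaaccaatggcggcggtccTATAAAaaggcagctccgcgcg
Cldn1 promoter, chr16:26371790-26372089, minus strand: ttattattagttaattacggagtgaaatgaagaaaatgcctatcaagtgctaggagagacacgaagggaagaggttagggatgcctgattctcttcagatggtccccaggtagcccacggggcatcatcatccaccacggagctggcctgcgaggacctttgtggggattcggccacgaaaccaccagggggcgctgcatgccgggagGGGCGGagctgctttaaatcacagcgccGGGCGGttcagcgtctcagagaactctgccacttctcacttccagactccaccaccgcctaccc
Ocln promoter, chr13:100552669-100552968, minus strand: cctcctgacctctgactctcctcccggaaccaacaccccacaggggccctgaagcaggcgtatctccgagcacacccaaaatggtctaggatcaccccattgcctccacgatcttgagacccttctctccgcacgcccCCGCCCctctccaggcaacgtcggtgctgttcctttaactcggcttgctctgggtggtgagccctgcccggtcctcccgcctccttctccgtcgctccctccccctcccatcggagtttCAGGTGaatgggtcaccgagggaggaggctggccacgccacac
The Slc2a1 window held 2 GC boxes, 1 ACGTG and 1 TATAAA. The TATAAA lay at position 29 after the start site, not before it. The Cldn1 window held 2 GC boxes and none of the other motifs. The Ocln window, at the first of its 2 RefSeq starts, held 1 GC box and 1 E-box. A GC box occurred in 35.7% of 32851 RefSeq promoter windows of this length, the E-box in 20.2%, ACGTG in 19.6%, TATAAA in 13.6% and CCGGAAG in 8.86%. A match is a description of the letters and says nothing of binding.

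No member passed edgeR's test in any comparison. Of the 6, 5 had enough counts to be tested among 15385 genes, and 0 of these 5 had an adjusted p under 0.05 after Benjamini-Hochberg adjustment of edgeR's quasi-likelihood test in any of 7 contrasts or in the test over all 4 groups. Few of the other genes passed either: 0.123% of all tested genes passed in combination against vehicle, 0.0065% in combination against CDKi, and 0% in ERKi against vehicle, CDKi against vehicle, combination against ERKi, ERKi against CDKi, the interaction of the inhibitors and the test over the 4 groups. At an unadjusted p under 0.05, Slc2a1 passed in combination against vehicle (1 of 5 members, against 11.5% of all tested genes), in CDKi against vehicle (1 of 5, against 3.12%) and in the test over the 4 groups (1 of 5, against 8.14%). Slc2a1 and Tjp1 passed in combination against ERKi (2 of 5, against 9.34%). No member did so in ERKi against vehicle (background 6.34%), combination against CDKi (7.07%), ERKi against CDKi (4.54%) or the interaction (3.69%). Limma-voom also called 0 members everywhere, and DESeq2 called 1, Slc2a1 in combination against vehicle. The comparisons with vehicle share the same 6 vehicle libraries and are not independent of each other.

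**Figure D2:**
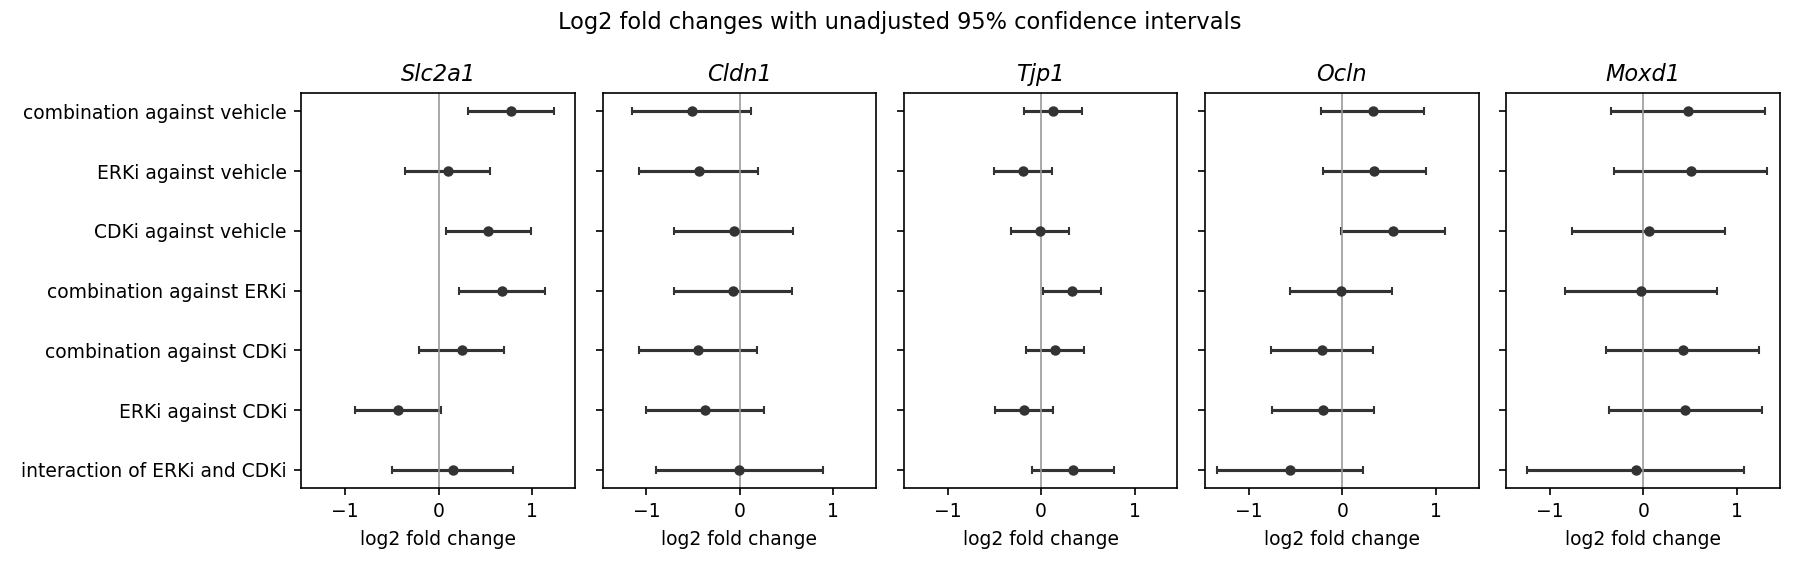
Log2 fold change (x axis) of the 5 tested members in 7 contrasts (rows), with unadjusted 95% confidence intervals from edgeR. The intervals of Slc2a1 for combination against vehicle, CDKi against vehicle and combination against ERKi, and that of Tjp1 for combination against ERKi, leave out 0.

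Slc2a1 (chr4:119108711-119137983, plus strand) had the highest ratio between group means of the tested members, 1.71 for combination over vehicle. Its level was 98.8 to 176 CPM in combination, with a median of 112. It was 64.0 to 97.9 CPM in ERKi, with a median of 78.1, and 65.5 to 155 CPM in CDKi, with a median of 111. In vehicle it was 52.7 to 111 CPM, with a median of 74.3. All 6 combination libraries lay above all 6 ERKi libraries and above 5 of the 6 vehicle libraries. The CDKi libraries spread over most of the range and overlapped every other group.

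Slc2a1 averaged 127 ± 32.1 CPM in combination and 74.1 ± 21.6 CPM in vehicle (SD, n = 6 each). The log2 fold change was 0.77 ± 0.22 (SE), a fold of 1.71 with a 95% interval of 1.24 to 2.35. The adjusted p was 0.140 by edgeR's quasi-likelihood test and 0.0382 by DESeq2, so the call depends on the tool, and it ranged from 0.0532 to 0.329 when single libraries were left out. Against ERKi, at 79.2 ± 13.9 CPM, the combination had a log2 fold change of 0.68 ± 0.22 (edgeR adjusted p = 0.450). In that contrast the ranges did not overlap, which held for 0.273% of all tested genes in the same direction. CDKi averaged 107 ± 38.0 CPM, with a log2 fold change against vehicle of 0.53 ± 0.22 (edgeR adjusted p = 1.00) and 4 of 6 libraries above the vehicle mean. ERKi differed least from vehicle, by 0.10 ± 0.22, with 3 of 6 libraries above the vehicle mean. With the adipocyte marker mean as a covariate the CDKi value against vehicle was 0.28 and the ERKi value -0.034. That mean did not overlap between CDKi (3.08 to 4.77 log2 CPM) and vehicle (0.0349 to 2.90 log2 CPM). Fat RNA and CDKi treatment therefore cannot be told apart by this term. The interaction, which asks whether the combination departs from the sum of the single drugs, was 0.15 ± 0.31 (95% interval -0.50 to 0.79), which leaves room for a departure from additivity in both directions.

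The size of the Slc2a1 difference depended on which libraries were counted. The 2 highest combination libraries, at 157 and 176 CPM, were both neuron-poor, whereas the neuron-poor vehicle libraries were at 52.7 and 70.9 CPM. Without the 6 neuron-poor libraries the log2 fold change of combination over vehicle was 0.40 (edgeR adjusted p = 0.781), and it was 0.41 without the neuron-poor and the liver-positive libraries together (adjusted p = 0.540), an alternative chosen after seeing the data. Combination over ERKi was 0.43 and 0.37 in these settings, and CDKi over vehicle 0.13 in the second. That second setting kept only CDKi 2, CDKi 4 and CDKi 6 of the CDKi group. Slc2a1 shares 105 exon bases with the antisense gene Gm12868. The strand setting of the counting is not given in the sources used here, so reads there may belong to either gene.

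Endothelial markers varied with Slc2a1. Vessels inside the nerve also carry GLUT1. All 10 endothelial markers had a positive log2 fold change in combination against vehicle, at a median of 0.79 against 0.04 over all tested genes. All 10 had an unadjusted p under 0.05, against 11.5% of all tested genes, and 0 of 10 passed after adjustment by edgeR. Their summed level was 202 to 584 CPM in combination, 124 to 274 CPM in ERKi, 170 to 340 CPM in CDKi and 135 to 251 CPM in vehicle, and none of the 10 was at 0. With the endothelial marker mean as a covariate, also an alternative chosen after seeing the data, the log2 fold change of Slc2a1 in combination against vehicle was 0.34 (edgeR adjusted p = 0.378) and in combination against ERKi 0.31. Over the 16 libraries that were neither neuron-poor nor liver-positive, with group means taken off, Slc2a1 and the endothelial mean had a Pearson r of 0.64 (permutation p = 0.00807) and a Spearman rho of 0.65 (permutation p = 0.0106). Adjusted over the 45 relations of 5 members with 9 marker lists, these were 0.121 and 0.159, and r was 0.58 without the 2 libraries farthest from the median. The part of endothelial RNA in the Slc2a1 difference was not tested beyond these values.

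**Figure D3:**
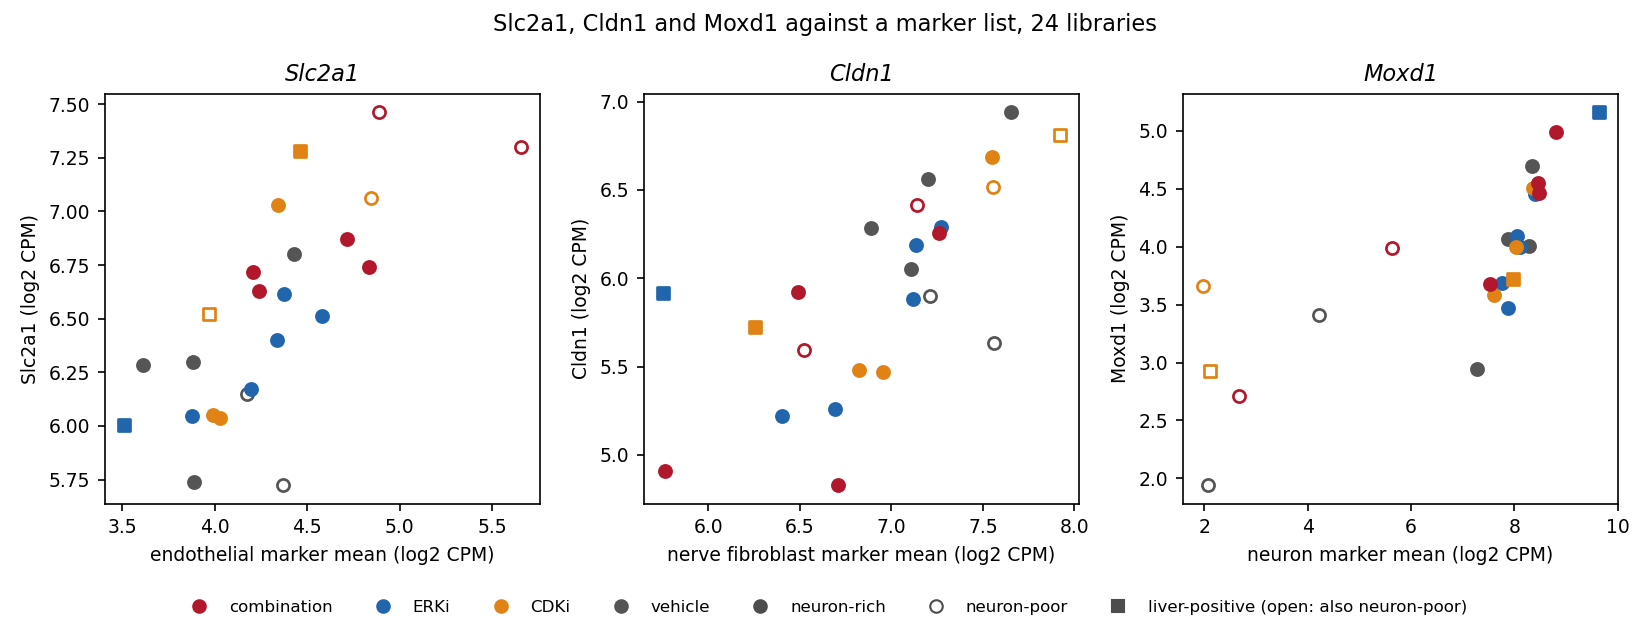
Log2 CPM of Slc2a1, Cldn1 and Moxd1 (y axes) against the mean log2 CPM of endothelial, nerve fibroblast and neuron markers (x axes), one point per library, coloured by group, open where neuron-poor and square where liver-positive. The 2 open combination points are the highest Slc2a1 libraries, and Moxd1 rises with the neuron mean among the filled circles.

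The other genes of glucose and lactate transport gave no call. Of 12 tested, 0 passed in any comparison with vehicle, and the median log2 fold change was -0.02 in combination, -0.11 in ERKi and -0.09 in CDKi. Over all tested genes the median was 0.036 in combination, 0.00024 in ERKi and -0.0068 in CDKi. Slc16a1, the lactate carrier MCT1 on which axons depend, averaged 52.1 ± 11.3 CPM in combination and 73.5 ± 16.96 CPM in vehicle (log2 fold change -0.50 ± 0.16, edgeR adjusted p = 0.207), below the vehicle mean in 6 of 6 libraries. Slc2a10, the gene for GLUT10, averaged 6.00 ± 2.10 CPM in combination and 9.99 ± 2.04 CPM in vehicle (log2 fold change -0.73 ± 0.30, edgeR adjusted p = 0.324). Of 24 tested genes of glycolysis and the hypoxia response, 0 passed, with medians of 0.12 in combination, 0.24 in ERKi and 0.05 in CDKi. P4ha1, a collagen prolyl hydroxylase subunit induced by hypoxia, had a log2 fold change of -0.49 and Pdk1, which restrains pyruvate entry into mitochondria, one of 0.31 in combination against vehicle (edgeR adjusted p = 0.403 and 0.424), so the 2 genes of that list with the smallest p lay on opposite sides of 0.

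**Figure D4:**
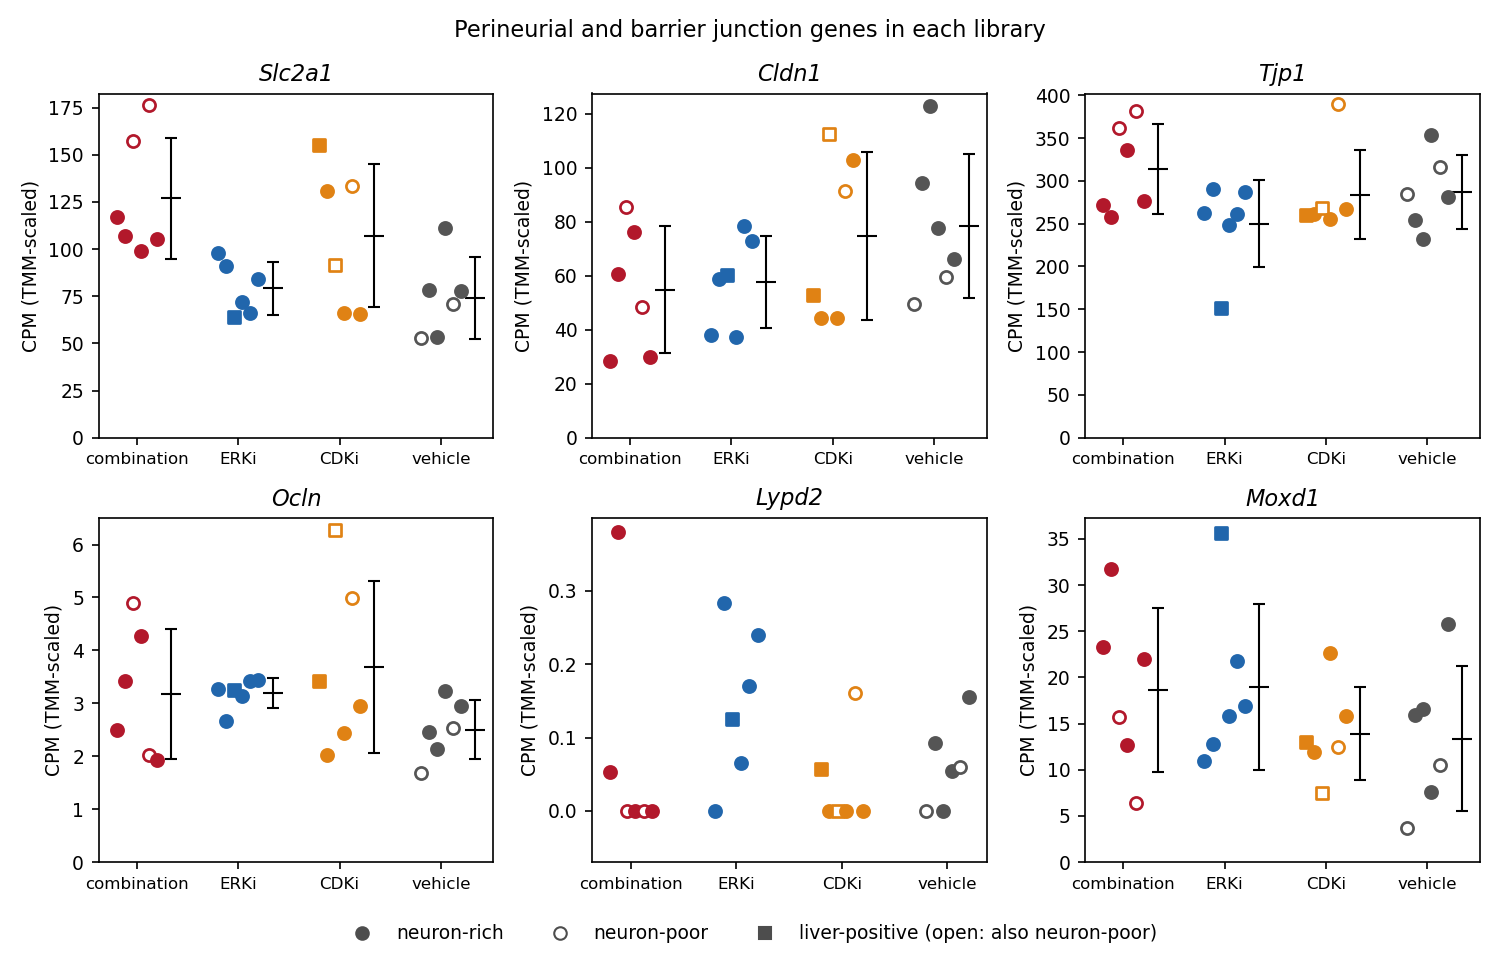
TMM-scaled CPM of each member in every library (points), by group, with the mean and SD beside each group except for Lypd2, which is below the limit of detection in most libraries. Open symbols are neuron-poor and squares liver-positive libraries. All Slc2a1 points of combination lie above those of ERKi, while the groups overlap in Cldn1, Tjp1, Ocln, Lypd2 and Moxd1.

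Cldn1 (chr16:26356642-26371841, minus strand) was at 28.3 to 85.2 CPM in combination (median 54.4), 37.1 to 78.2 CPM in ERKi (59.6), 44.2 to 112 CPM in CDKi (72.1) and 49.6 to 123 CPM in vehicle (72.0). The groups overlapped throughout, with the lowest libraries in combination and the highest in vehicle. Means were 54.8 ± 23.6 CPM in combination, 57.6 ± 17.1 in ERKi, 74.7 ± 31.0 in CDKi and 78.4 ± 26.7 in vehicle. Against vehicle the log2 fold change was -0.52 ± 0.31 in combination (edgeR adjusted p = 0.547) and -0.44 ± 0.31 in ERKi (adjusted p = 0.672), below the vehicle mean in 5 and 6 of 6 libraries. In CDKi it was -0.07 ± 0.31, with 3 of 6 libraries below. The 95% interval for combination ran from -1.15 to 0.12, so a fall to less than a 0.451-fold level was outside it. The size of these differences depended on single libraries and on the tool. The combination value was -0.89 without the neuron-poor libraries, -0.86 by limma-voom and -0.22 without the deepest and the shallowest library. The ERKi value was -0.17 without the deepest and the shallowest library and -0.28 without vehicle 3. The deepest and the shallowest library are vehicle 2 and vehicle 3, so that setting takes libraries from the vehicle group only. They had the highest Cldn1 levels of that group, at 94.4 and 123 CPM.

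Fibroblast RNA varied with Cldn1 across libraries. The 10 nerve fibroblast markers summed to 4368 to 11918 CPM in combination, 3549 to 10301 CPM in ERKi, 8187 to 16414 CPM in CDKi and 9319 to 15083 in vehicle, with none at 0. Over the 16 libraries, with group means taken off, Cldn1 and the fibroblast mean had a Pearson r of 0.80 (permutation p = 0.00227) and a Spearman rho of 0.78 (permutation p = 0.00225), and r was 0.75 without the 2 farthest libraries. Adjusted over the 45 relations these were 0.0511 and 0.0506, short of the threshold. In combination against vehicle 9 of the 10 fibroblast markers had a negative log2 fold change, with a median of -0.44. Their part in the Cldn1 values was not tested.

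Of 21 other claudins 9 had enough counts to be tested, and 0 passed in any comparison with vehicle, with median log2 fold changes of -0.02 in combination, -0.15 in ERKi and -0.08 in CDKi. Cldn5 averaged 19.9 ± 4.47 CPM in combination and 13.8 ± 4.05 CPM in vehicle (log2 fold change 0.53 ± 0.23, edgeR adjusted p = 0.356), on the same side as the endothelial markers, of which it is one. Cldn15, a claudin that forms cation pores, averaged 1.61 ± 0.592 CPM in combination and 2.17 ± 0.784 CPM in vehicle (log2 fold change -0.42 ± 0.34, edgeR adjusted p = 0.706).

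Ocln (chr13:100496507-100552718, minus strand) was a low gene, with 12 to 106 counts in a library. It was at 1.92 to 4.90 CPM in combination (median 2.96), 2.67 to 3.44 CPM in ERKi (3.26), 2.03 to 6.27 CPM in CDKi (3.19) and 1.69 to 3.24 CPM in vehicle (2.50). ERKi was the narrowest group and all 6 of its libraries lay above the vehicle mean, though its range overlapped that of vehicle. The 2 highest values were in the neuron-poor CDKi libraries, at 6.27 and 4.99 CPM. Means were 3.17 ± 1.23 CPM in combination, 3.20 ± 0.283 in ERKi, 3.68 ± 1.63 in CDKi and 2.51 ± 0.556 in vehicle. The log2 fold changes against vehicle were 0.33 ± 0.27 in combination, 0.34 ± 0.27 in ERKi and 0.54 ± 0.27 in CDKi (edgeR adjusted p = 0.704, 0.676 and 1.00). The CDKi value was 0.33 without CDKi 3, and it was -0.13 without the neuron-poor and the liver-positive libraries together, a change of sign. That last setting kept only CDKi 2, CDKi 4 and CDKi 6 of the CDKi group, its libraries with the lowest Ocln levels. The combination value was 0.16 without combination 3, 0.14 without the neuron-poor libraries and 0.083 by limma-voom. The ERKi value was 0.22 without the neuron-poor libraries.

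Tjp1 (chr7:65296165-65527781, minus strand) was the steadiest member. It was at 258 to 382 CPM in combination (median 306), 152 to 290 CPM in ERKi (262), 256 to 390 CPM in CDKi (265) and 232 to 354 CPM in vehicle (283). The groups overlapped, and 1 ERKi library was far below and 1 CDKi library far above the rest of its group. Means were 314 ± 52.4 CPM in combination, 250 ± 50.7 in ERKi, 284 ± 52.3 in CDKi and 287 ± 43.5 in vehicle. Against vehicle the log2 fold changes were 0.13 ± 0.15 in combination, -0.20 ± 0.15 in ERKi and -0.02 ± 0.15 in CDKi, with 95% intervals of -0.18 to 0.44, -0.51 to 0.11 and -0.33 to 0.29. Combination against ERKi gave 0.33 ± 0.15 (edgeR adjusted p = 0.508), with all 6 combination libraries above the ERKi mean. That value was 0.19 without the neuron-poor libraries, 0.15 by limma-voom, 0.096 with the endothelial mean as a covariate and 0.074 without the neuron-poor and the liver-positive libraries together. ERKi against vehicle was -0.091 without ERKi 3 and -0.37 with the adipocyte mean as a covariate. CDKi against vehicle was -0.11 without CDKi 5 and -0.31 with the adipocyte mean, which did not overlap between CDKi and vehicle. Over the 24 libraries after group means were taken off, Tjp1 had a Pearson r of 0.75 to the Schwann marker mean. It was 0.65 to the endothelial and -0.56 to the neuron mean, all given as a description. Over the 16 libraries the Schwann r was 0.50 (permutation p = 0.0842, 0.493 adjusted over the 45 relations described above), and 0.39 without the 2 farthest libraries. The Spearman rho was 0.50 (permutation p = 0.0789, 0.592 adjusted). The neuron r was larger in size there, at -0.69 (permutation p = 0.0273, 0.307 adjusted), and -0.29 without the 2 farthest libraries. No relation of Tjp1 passed after adjustment.

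The other proteins of the tight and adherens junction gave no call either. Of 20 other tight junction genes tested, 0 passed in any comparison with vehicle, with medians of -0.03 in combination, 0.16 in ERKi and -0.01 in CDKi. Esam, an adhesion molecule of endothelial junctions and one of the endothelial markers, averaged 21.96 ± 10.03 CPM in combination and 10.4 ± 2.42 CPM in vehicle (log2 fold change 1.07 ± 0.25, edgeR adjusted p = 0.0770), above the vehicle mean in 6 of 6 libraries. Lsr, a protein of tricellular junctions, averaged 5.59 ± 2.54 CPM in combination and 3.31 ± 0.820 CPM in vehicle (log2 fold change 0.76 ± 0.27, edgeR adjusted p = 0.241). Of 10 adherens junction genes tested, of 11 listed, 0 passed, with medians of -0.07, -0.02 and -0.06 in combination, ERKi and CDKi. Cdh5, the endothelial cadherin, and Cdh1, the epithelial cadherin that Schwann cells also use, had log2 fold changes of 0.78 ± 0.26 and -0.71 ± 0.26 in combination against vehicle (edgeR adjusted p = 0.211 and 0.249). The 13 genes of the endothelial barrier list all had positive values in combination against vehicle, with a median of 0.66, and 0 passed. This list is not separate from the endothelial markers above, with which it shares 7 of its 13 genes, or 7 of those 10. The 6 genes outside that overlap had a median of 0.42 in the same comparison (0.10 to 0.72). An unadjusted p under 0.05 was found for 2 of them, against 11.5% of all tested genes. In the list were Abcg2, a drug efflux pump, at 0.42 ± 0.11, and Kdr, the main VEGF receptor, at 0.80 ± 0.24 (edgeR adjusted p = 0.127 and 0.170).

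**Figure D5:**
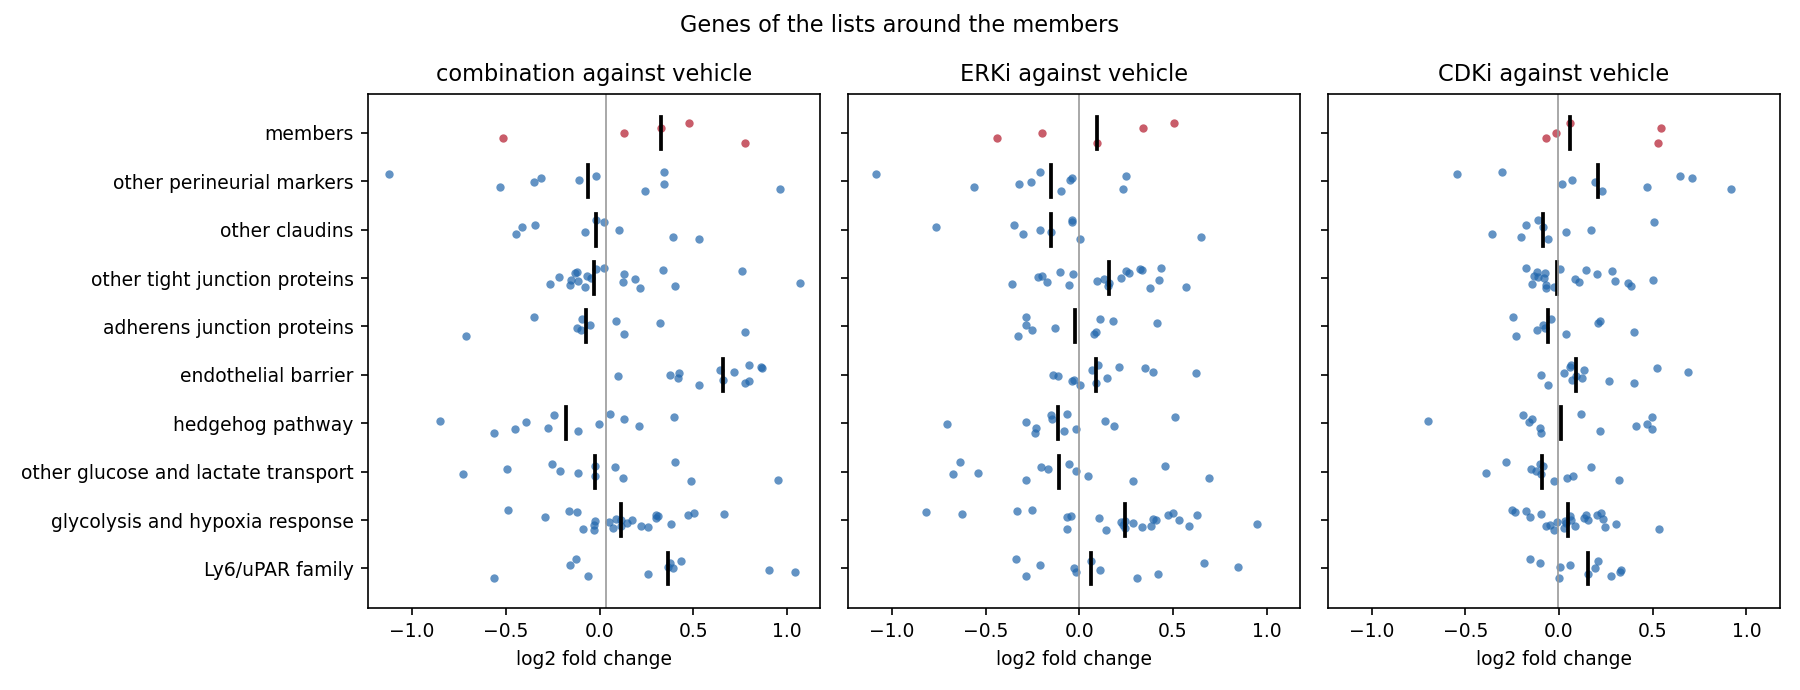
Log2 fold change (x axis) of each tested gene of the members and of 9 lists around them (rows) in combination, ERKi and CDKi against vehicle, with the list median as a black bar and the median over all tested genes as a grey line. The endothelial barrier genes all lie above 0 in combination against vehicle, and the other lists straddle 0 in all 3 comparisons.

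Moxd1 (chr10:24223517-24302790, plus strand) varied most between libraries of the tested members, 9.56-fold between the lowest and the highest of 24. It was at 6.44 to 31.7 CPM in combination (median 18.9), 11 to 35.7 CPM in ERKi (16.4), 7.50 to 22.7 CPM in CDKi (12.8) and 3.73 to 25.8 CPM in vehicle (13.3). The groups overlapped widely. Means were 18.6 ± 8.91 CPM in combination, 18.99 ± 8.97 in ERKi, 13.9 ± 5.06 in CDKi and 13.4 ± 7.84 in vehicle. The log2 fold changes against vehicle were 0.48 ± 0.40 in combination, 0.50 ± 0.40 in ERKi and 0.06 ± 0.40 in CDKi (edgeR adjusted p = 0.710, 0.677 and 1.00). These values moved widely with the libraries counted. Combination against vehicle was 0.26 without combination 2, 0.28 without vehicle 1 and 0.78 without vehicle 6. ERKi against vehicle was 0.23 without ERKi 3, 0.30 without vehicle 1 and 0.79 without vehicle 6. With the adipocyte mean as a covariate the values were 1.07 in combination, 1.07 in ERKi and 0.96 in CDKi. The adipocyte mean did not overlap between CDKi and vehicle, so fat RNA and CDKi treatment cannot be told apart there. With the endothelial mean the combination value was 1.23. With the neuron mean as a covariate the ERKi value was 0.14, and combination against ERKi was 0.22. The combination value against vehicle stayed between 0.36 and 1.23 over all alternatives other than single libraries left out.

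The level of Moxd1 followed neuronal RNA. It was 3.73 to 15.7 CPM in the 6 neuron-poor libraries and 7.58 to 35.7 CPM in the other 18. Over all 24 libraries, with group means taken off, its Pearson r to the neuron marker mean was 0.76, given as a description. Over the 16 libraries, with group means taken off, Moxd1 and the mean of 10 neuron markers had a Pearson r of 0.93 (permutation p = 7.0e-05) and a Spearman rho of 0.86 (permutation p = 0.00027). Adjusted over the 45 relations these were 0.00315 and 0.0121, and r was 0.89 without the 2 farthest libraries. This was the only one of the 45 relations with an adjusted p under 0.05 by both measures. The neuron markers summed to 92.6 to 4830 CPM in combination, 2418 to 8582 CPM in ERKi, 61.2 to 3559 CPM in CDKi and 67.1 to 3439 in vehicle, with none at 0. Of its copper monooxygenase relatives 1 was tested, Pam, an enzyme that amidates peptides, at 395 ± 69.3 CPM in combination and 464 ± 67.3 CPM in vehicle (edgeR adjusted p = 0.601).

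Lypd2 (chr15:74732247-74734329, minus strand) fell below the count filter and was left out of the fit. Over 6 libraries each it summed to 6 counts in combination, 17 in ERKi, 4 in CDKi and 9 in vehicle. It had at least 1 count in 2, 5, 2 and 4 of 6 libraries of these groups, and no library had more than 6. The limit of detection, taken as 3 counts, was 0.0697 to 0.536 CPM depending on the library. An exact two-sided permutation test of CPM over libraries, an analysis added after seeing the data, gave 0 of 6 comparisons between groups with an adjusted p under 0.05. The smallest exact p was 0.0541 (0.325 adjusted over the 6), for ERKi at 0.148 ± 0.107 CPM against CDKi at 0.0363 ± 0.0652 CPM. Against vehicle, at 0.0604 ± 0.0591 CPM, the exact p was 0.987 for combination, 0.117 for ERKi and 0.610 for CDKi. Of 18 Ly6/uPAR relatives 11 were tested and 0 passed in any comparison with vehicle, with medians of 0.36 in combination, 0.06 in ERKi and 0.15 in CDKi. Ly6a and Ly6c1, surface proteins found on vessel endothelium and other cells in mice, had log2 fold changes of 1.05 ± 0.29 and 0.90 ± 0.27 in combination against vehicle (edgeR adjusted p = 0.132 and 0.148), above the vehicle mean in 6 of 6 libraries.

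Other markers of perineurial cells gave no call. All 10 were tested and 0 passed in any comparison with vehicle. In combination 4 of 10 log2 fold changes were above 0, in ERKi 2 and in CDKi 8. The median log2 fold change was -0.06 in combination, -0.15 in ERKi and 0.21 in CDKi. Crabp2, a retinoic acid carrier, averaged 6.83 ± 1.61 CPM in combination and 14.9 ± 3.58 CPM in vehicle (log2 fold change -1.12 ± 0.38, edgeR adjusted p = 0.207), below the vehicle mean in 6 of 6 libraries. Sfrp5, a secreted WNT antagonist, averaged 187 ± 44.1 CPM in combination and 238 ± 23.9 CPM in vehicle (log2 fold change -0.35 ± 0.20, edgeR adjusted p = 0.530). Crabp2 and Sfrp5 are named for having the smallest p of the list in this comparison. Ntn4 and Itgb4 had higher means in combination than in vehicle. Per kilobase of exon, Ntn4 was at 17.5 ± 4.89 against 13.8 ± 4.18 CPM and Itgb4 at 57.8 ± 18.8 against 48.9 ± 15.7 CPM. Of 12 tested hedgehog genes 0 passed, with medians of -0.18 in combination, -0.11 in ERKi and 0.01 in CDKi. Dhh, the Schwann cell ligand that shapes the perineurium in mice, averaged 151 ± 39.3 CPM in combination and 223 ± 59.8 CPM in vehicle (log2 fold change -0.56 ± 0.24, edgeR adjusted p = 0.355), below the vehicle mean in 6 of 6 libraries. Hhip, a membrane antagonist of hedgehog ligands, was at 0.910 ± 0.783 CPM in combination and 1.68 ± 0.877 CPM in vehicle (edgeR adjusted p = 0.487). Dhh and Hhip, too, are named for the smallest p of their list. Of the 12 hedgehog genes, 4 had a log2 fold change above 0 in combination and 8 below. Per kilobase of exon, Gli1 averaged 10.5 ± 4.10 CPM in combination and 9.02 ± 0.814 CPM in vehicle, and Ptch1 16.6 ± 3.62 and 17.9 ± 1.77 CPM.

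The members were also compared with each other across libraries. Of the 10 pairs among the 5 tested members, 0 passed the adjusted threshold over the 16 libraries with group means taken off, and the smallest adjusted permutation p was 0.204. Cldn1 and Ocln, both integral proteins of the tight junction strand, had a Pearson r of 0.52 (permutation p = 0.123) and a Spearman rho of 0.48 (permutation p = 0.128), and r was 0.28 without the 2 farthest libraries. Tjp1 and Moxd1 had the most negative r, -0.64 (permutation p = 0.0505), with a rho of -0.51 (permutation p = 0.0886) and an r of -0.19 without the 2 farthest libraries, so that value rests on those libraries. The 6 neuron-poor libraries alone, a set outside the planned analyses, come from 3 groups and were taken without removing group means. There Cldn1 and Ocln had an r of 0.987 (exact permutation p = 0.00417, 0.0417 adjusted over 10 pairs). The rho was 0.943 (exact permutation p = 0.0167, 0.167 adjusted). With 2 libraries left out the r was 0.995 over 4 libraries. This permutation shuffled libraries across groups, so differences between groups enter both r and p. Both genes were highest in CDKi 3 and CDKi 5 (Cldn1 112 and 91.4 CPM, Ocln 6.27 and 4.99 CPM). These p-values therefore do not show a likeness apart from treatment.

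The genes whose pattern was most like each member, by Pearson r over 24 libraries after group means were taken off, differed between members. For Slc2a1 these were Hip1 (0.86), Jade2 (0.84), Ddx27 (0.84), Snrk (0.82) and Cbl (0.80). For Cldn1 they were Itgbl1 (0.89), Ecm2 (0.84), Il13ra1 (0.82), Xpnpep2 (0.81) and Cpsf3 (0.81). For Tjp1 they were Mavs (0.94), Sp1 (0.93), Nhlrc2 (0.93), Cdk13 (0.91) and Mcmbp (0.91). Ocln had the weakest likeness, with C2 (0.75), F11r (0.75), Foxc1 (0.74), Dleu7 (0.74) and Slc6a12 (0.74). F11r encodes JAM-A, another tight junction protein. For Moxd1 they were Trim2 (0.90), Cltc (0.90), Tmem200a (0.90), Anxa6 (0.89) and Clstn2 (0.89). Over the 16 libraries the order held best for Cldn1, whose 5 genes had an r of 0.83 to 0.94 and ranked 1 to 29 among all genes compared, and for Tjp1, with 0.84 to 0.90 and ranks of 3 to 36. The 5 genes of Slc2a1 had an r of 0.81 to 0.93 there but ranked 6 to 371, and those of Moxd1 had 0.74 to 0.89 and ranked 152 to 1026. Those of Ocln had 0.44 to 0.63 and ranked 117 to 828, with F11r at 0.59 and rank 187. These values share the libraries, their depth and their tissue makeup, and are given as a description.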

How the data were processed

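The deposited table holds unscaled whole-number read counts for every gene, 1 column to each of the 24 libraries. Per the labels' protocols, libraries were made with a KAPA RNA HyperPrep kit after ribosomal RNA removal, although the molecule label reads polyA RNA. The tools named are FastQC, STAR and DESeq2, on build mm10, per the submitters' processing notes. Versions, counting program, annotation and strandedness: not given in the sources used here.

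Groups were read from the treatment label, and numbers only name libraries. Genes were kept by filterByExpr (minimum count 10, minimum total 15), which left 15385 genes holding at least 98.6% of each library's counts. Libraries were scaled by TMM and fitted in R 4.3.3 with edgeR 4.0.16, by a robust quasi-likelihood model of all 24 libraries with a mean per group. Tests were two-sided, adjusted by the Benjamini-Hochberg method over all genes of a contrast, at a threshold of 0.05. Standard errors are the log2 fold change over the square root of F. Log2 CPM used a prior count of 2, and permutations (100000) shuffled libraries within groups. The exact permutations over the 6 neuron-poor libraries shuffled across groups. Lypd2, below the filter, was compared by exact permutation of CPM over libraries. The test was checked on simulated counts. Among 60 pairs of libraries within groups, none was a repeat of another within sampling noise. Detection limits reflect counting error alone, because PCR copies could not be told from separate molecules.

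Exon lengths, positions and overlaps come from the GENCODE annotation of GRCm38, which has the coordinates of mm10. Some listed symbols were matched by older names (Patj as Inadl, Afdn as Mllt4, Nectin1 as Pvrl1, Nectin3 as Pvrl3, Slurp2 as 2300005B03Rik), and 1 listed symbol had no match. Named genes are the 6 members, any called gene of a list and the 2 of each list with the smallest p in combination against vehicle, and the 5 genes most like each member, without predicted genes and pseudogenes. The members, the lists and the tests were chosen with earlier results of these data known. As alternatives, the counts were run through DESeq2 1.42.0 and limma-voom with sample weights (limma 3.58.1), with RLE and upper quartile scaling, other count filters, only the groups compared, library exclusions, and marker means or title numbers as terms.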

Additional observations from a re-analysis of the deposited data

Results flagged for a closer look

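Among 24 sets of 6 libraries (6 members in 4 groups), 4 held a library far from its nearest neighbour relative to the range of the group. Chance flags about 1 in 20 such sets where values are normally spread. That rate does not apply to Lypd2 in combination or CDKi, where only 2 of 6 libraries had a count. Tjp1 was at 152 CPM in ERKi 3, a liver-positive library and the lowest of its group, where the next value was 248 CPM. Tjp1 was at 390 CPM in CDKi 5, a neuron-poor library, where the next value was 268 CPM. Lypd2 was at 0.380 CPM in combination 2 and at 0.161 CPM in CDKi 5, values that rest on 5 and 3 counts, with the next library of the group at 0.0532 and 0.0570 CPM. ERKi 3 also had the lowest Schwann marker sum of the 24 libraries, 5667 CPM. CDKi 5 had the highest Schwann, skeletal muscle and adipocyte sums, at 32795, 951 and 346 CPM, where the medians over 24 libraries were 21768, 35.1 and 143 CPM. The part of Schwann cell, muscle, fat, liver or neuronal RNA in the Tjp1 values was not tested.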

How the results depend on the processing

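The count of members with an adjusted p under 0.05 stayed at 0 in every comparison and under every alternative run, leaving out each of the 24 libraries included (0 to 0), with 1 exception: DESeq2 gave 1 member, Slc2a1, in combination against vehicle. The cause was not tested. Restricting the fit to the groups compared could not be done for the interaction or the test over 4 groups, which use all groups. Labels carry no replicate numbers. No paired analysis was possible because the libraries' titles pair no samples across groups. Of all tested genes, 19 passed in combination against vehicle by edgeR, against 272 by DESeq2, 29 by limma-voom, 6 with no count filter, 10 with only the groups compared, 108 without the liver-positive libraries and 0 without the neuron-poor ones; the count was 38, 1 and 5 with the neuron, adipocyte and endothelial marker means as covariates, 1 without the deepest and shallowest libraries, 2 without liver-positive and neuron-poor libraries, and 0 to 94 over single libraries left out. DESeq2 also gave 84 genes in combination against CDKi, where edgeR gave 1.

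Log2 fold changes that changed sign had not been called in either setting, and the cause was not tested. By limma-voom, Moxd1 was at -0.042 in CDKi against vehicle, 0.25 in combination against ERKi and 0.29 in the interaction, and Ocln at 0.045 in ERKi against CDKi. Other scalings and filters moved values close to 0. Cldn1 in the interaction was at 0.0090 with upper quartile scaling and 0.0071 with a filter of a CPM above 1 in 6 libraries, under which Ocln was at 0.0082 in combination against ERKi. Tjp1 in CDKi against vehicle was at 0.0041 without a filter and 0.011 with a term for the number series of the titles.

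Without the liver-positive libraries, Moxd1 was at 0.25 in combination against ERKi, -0.018 in ERKi against CDKi and 0.0065 in the interaction. Ocln was then at 0.018 in combination against CDKi and 0.029 in ERKi against CDKi, Tjp1 at 0.040 in CDKi against vehicle, and Cldn1 at 0.075 in the interaction. Without the neuron-poor libraries, Slc2a1 was at -0.030 in ERKi against vehicle, Moxd1 at -0.042 in CDKi against vehicle, 0.24 in combination against ERKi and 0.28 in the interaction, Ocln at 0.14 in combination against CDKi and 0.22 in ERKi against CDKi, and Cldn1 at 0.30 in the interaction. Without both kinds, Moxd1 was at -0.070 in ERKi against vehicle, 0.51 in combination against ERKi, -0.11 in ERKi against CDKi and 0.46 in the interaction. Ocln was then at -0.13 in CDKi against vehicle, 0.27 in combination against CDKi, 0.35 in ERKi against CDKi and 0.043 in the interaction, Tjp1 at 0.038 in ERKi against CDKi, and Cldn1 at 0.24 in the interaction.

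With the neuron marker mean as a covariate, Moxd1 was at 0.22 in combination against ERKi and -0.13 in ERKi against CDKi. With the adipocyte mean, Tjp1 was at -0.038 in combination against vehicle, Slc2a1 at -0.034 in ERKi against vehicle and Moxd1 at 0.0049 in combination against ERKi. With the endothelial mean, Tjp1 was at -0.15 in combination against vehicle and -0.041 in combination against CDKi, Slc2a1 at -0.027 in combination against CDKi and -0.055 in the interaction, and Moxd1 at 0.63 in combination against ERKi and 0.28 in the interaction. Without the deepest and the shallowest library (vehicle 2 and vehicle 3), Slc2a1 was at -0.012 in ERKi against vehicle. Cldn1 was then at 0.24 in CDKi against vehicle and Ocln at 0.0071 in combination against ERKi.

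Leaving out single libraries also changed signs. Cldn1 ranged from -0.21 to 0.11 in CDKi against vehicle, -0.24 to 0.066 in combination against ERKi and -0.19 to 0.14 in the interaction. Moxd1 ranged from -0.14 to 0.37, -0.22 to 0.25 and -0.38 to 0.18 in the same comparisons. Ocln ranged from -0.17 to 0.10 in combination against ERKi, Slc2a1 from -0.0060 to 0.30 in the interaction, and Tjp1 from -0.11 to 0.065 in CDKi against vehicle. Depth limits Lypd2 most, since a count of 3 is 0.536 CPM in the shallowest library, and Ocln next, with 12 counts in that library.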
